A study of Mus musculus with 8 samples.

Results

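A group of 10 genes of simple embryonic epithelium was followed across the tissue at closure site 1 of the mouse neural tube: the adhesion genes Cdh1 and Epcam, the keratin genes Krt8, Krt18 and Krt19, the claudin genes Cldn6 and Cldn7, the transcription factor genes Grhl2 and Grhl3, and the ligand gene Wnt6. The genes were taken by symbol, 10 of the 26608 genes listed for each library, and all 10 had a count in at least 1 library. The tissue came from FVB embryos on day 8.5 of gestation and was laser-dissected from cryosections, either directly behind the front edge of closure site 1 (closed) or directly in front of it (open). SOLiD SAGE libraries made from 7 ng of total RNA each count short tags, so that a gene's count does not grow with the length of its transcript. The 4 groups were closed tissue of diabetic dams (libraries 15 and 16), open tissue of diabetic dams (13 and 14), closed tissue of normal dams (11 and 12) and open tissue of normal dams (09 and 10). All groups shared the strain and the day, and how the dams became diabetic is not given in the labels. Neither is the number of embryos in a library, so the p-values measure the spread between these libraries only.

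At this stage the neural plate is bordered on both sides by surface ectoderm, a simple epithelium that travels with the rising neural folds and fuses over the closed tube. Its cells hold together through E-cadherin and EpCAM, seal their borders with claudins, and are braced by keratin filaments in which a type I chain (Krt18 or Krt19) pairs with a type II chain (Krt8). The neural plate itself exchanges E-cadherin for N-cadherin. Grhl2 and Grhl3 are grainyhead-like transcription factors of surface ectoderm. Grhl2 is known to raise E-cadherin and claudin genes in mouse epithelia, and mouse mutants of either factor have open neural tubes. Gut endoderm, which lies below the neural tube at this stage, also makes E-cadherin, EpCAM, Krt8, Krt18 and claudins, so that none of these genes marks surface ectoderm alone.

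Epcam, Krt8 and Cldn7 shared a pattern described below, in which all 3 had no count in diabetic open library 14. Their promoters are shown for that reason, as RefSeq gives them in assembly GRCm38.p6, 250 bases before to 50 bases after the start site, in the direction of transcription. The counts were made on build mm9, so these positions were not set against them. Capitals mark CACCTG and its reverse complement CAGGTG, the E-box that Snail and Zeb repressors bind, and ACCGGT, a core of the grainyhead motif, which reads the same on both strands. The Epcam window lies at chr17:87635729-87636028 on the plus strand, the Krt8 window at chr15:102004293-102004592 on the minus strand, and the Cldn7 window, 1 of 2 in the table, at chr11:69965171-69965470 on the plus strand.
Epcam: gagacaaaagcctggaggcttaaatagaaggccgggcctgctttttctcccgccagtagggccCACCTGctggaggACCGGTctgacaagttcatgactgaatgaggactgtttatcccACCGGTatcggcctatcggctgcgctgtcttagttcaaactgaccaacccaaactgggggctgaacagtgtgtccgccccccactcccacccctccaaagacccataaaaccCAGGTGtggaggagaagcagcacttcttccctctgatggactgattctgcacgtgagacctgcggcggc
Krt8: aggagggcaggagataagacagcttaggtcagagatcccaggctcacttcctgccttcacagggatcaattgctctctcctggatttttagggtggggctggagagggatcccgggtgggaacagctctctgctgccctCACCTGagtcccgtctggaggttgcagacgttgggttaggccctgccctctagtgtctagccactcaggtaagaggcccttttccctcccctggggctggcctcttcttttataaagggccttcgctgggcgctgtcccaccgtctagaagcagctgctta
Cldn7: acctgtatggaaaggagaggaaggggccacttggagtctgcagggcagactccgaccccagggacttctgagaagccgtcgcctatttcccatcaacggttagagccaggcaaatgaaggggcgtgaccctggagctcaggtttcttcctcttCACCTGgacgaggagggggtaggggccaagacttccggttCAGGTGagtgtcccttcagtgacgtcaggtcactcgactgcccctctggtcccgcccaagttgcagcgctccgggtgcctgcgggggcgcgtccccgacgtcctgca
The Epcam window held ACCGGT 2 times, at -174 and -131 from the start site, and the E-box at -187 and -19. In the Krt8 window the E-box stood at -111, and in the Cldn7 window at -97 and -57. RefSeq windows were at hand for 7 of the 10 genes, 8 windows in all. The E-box was in a window of 6 genes (Epcam, Krt8, Krt18, Cldn6, Cldn7 and Grhl3, but not Wnt6), against 20.2% of 32851 promoters. Members were counted by gene, over any of its windows, and all promoters by window. The other Cldn7 window, at chr11:69964529-69964828, held no E-box. ACCGGT was in the Epcam window alone among the 7, against 2.33% of all promoters. The full grainyhead palindrome AACCGGTT was in none of them, against 0.146% of all promoters. A set of 8 motif spellings was searched on both strands, after the windows had been looked at. ACCGGT is the centre of AACCGGTT, and no match of ACCGGT overlaps one of CACCTG in the windows shown. The other 5 spellings were AACCNGTT (0 of 7 genes, 2.09% of promoters), AACCGG (1, 6.83%), AAACCGG (0, 1.96%), AACCNG (2, 39.4%) and AACCTG (2, 15.6%). A match is a match of letters and does not show that a factor binds there.

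Library totals ran from 5041586 to 16655583 counts, so that 1 count was worth 0.06 to 0.198 CPM (counts scaled to a library total of 1000000), the unit of all levels below. One library stands apart and touches several results. In diabetic open library 13 the 7 neural markers summed to 178 CPM (741 to 1119 CPM in the other 7 libraries), the 7 mesenchyme and somite markers to 1334 CPM (117 to 582) and the 11 gut endoderm markers to 204 CPM (19.8 to 79.9). Of the last sum Gata4 and Gata6, which heart and other mesoderm also express, made 143 CPM, and the other 9 markers summed to 60.6 CPM, below the 72 CPM of closed library 15. Results of the 10 genes that change direction or size without library 13 are given both ways. In bulk tissue, fewer cells of a type and less RNA per cell cannot be told apart.

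Krt18 and Cdh1 were the most abundant of the 10, with means over the 8 libraries of 58.3 and 52.9 CPM. Krt8 (18.4 CPM), Cldn7 (16.4), Krt19 (13.3) and Epcam (10.7) followed, then Wnt6 (5.19), Grhl3 (4.84), Grhl2 (1.74) and Cldn6 (0.525). Each gene's levels in the 8 libraries overlapped those of the next in this order. Neighbours were not tested against each other, and the overlap does not compare them within a library. The order of the first pair changed with the tissue: Cdh1 was above Krt18 in all 4 closed libraries and below it in all 4 open libraries. The sum of all 10 was 309 and 115 CPM in diabetic closed libraries 15 and 16 and 284 and 130 CPM in normal closed libraries 11 and 12, against 371 and 75 CPM in diabetic open libraries 13 and 14 and 69.1 and 105 CPM in normal open libraries 09 and 10. Library 13 thus had the highest sum of all, while the other 3 open libraries lay below every closed one.

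**Figure D1:**
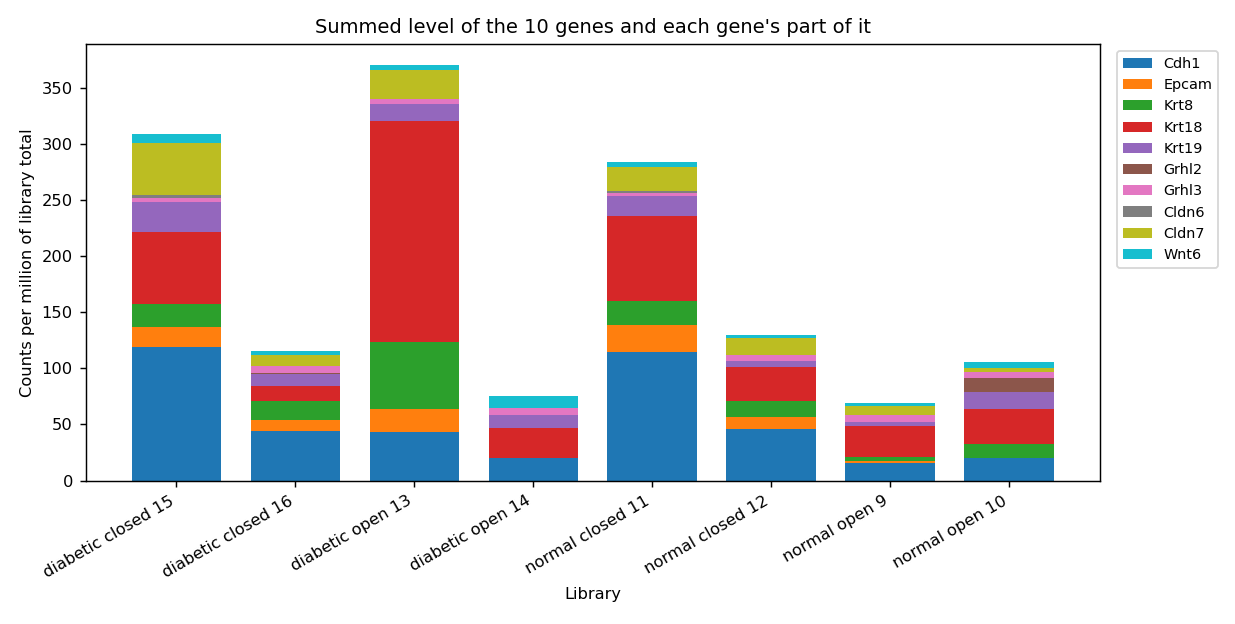
Summed level of the 10 genes in each library, in CPM of the library total, with each bar split by gene. Diabetic open library 13 reaches 371 CPM, of which Krt18 makes 53%, and Cdh1 is the largest part in all 4 closed libraries.

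Cdh1, which encodes E-cadherin, was the 1 member whose closed libraries all lay above its open ones. It stood at 119 and 44.1 CPM in diabetic closed libraries 15 and 16 and at 115 and 46.3 CPM in normal closed libraries 11 and 12, against 43.3 and 20.1 CPM in diabetic open libraries 13 and 14 and 15.3 and 20.1 CPM in normal open libraries 09 and 10. The lowest closed library, 16, exceeded open library 13 by little. Closed tissue averaged 81 ± 41.4 CPM and open tissue 24.7 ± 12.6 CPM (n = 4 each, SD), and the log2 fold change was 1.82 (SE 0.45) in edgeR's quasi-likelihood fit of region and dam. The adjusted p over the 11779 genes tested was 1.00 (unadjusted p = 0.00204), so Cdh1 did not pass. Without library 13 open tissue averaged 18.5 ± 2.76 CPM (n = 3) and the fold change was 2.16 (SE 0.45, edgeR adjusted p = 0.653). With all libraries but no filter on low counts, Cdh1 passed (log2 fold change 1.82, SE 0.37, edgeR adjusted p = 0.00128), beside 29 of 15162 genes. The unadjusted edgeR p of that fit, 1.18e-06, is what a normal distribution gives for this fold change and SE. A gene's own spread between libraries thus carried little weight in that fit. Cdh1 was not called by DESeq2 (adjusted p = 0.101) or limma-voom (0.92). Regions before and behind the closure front also differ in axial level, so the state of closure and the axial level cannot be told apart. Across all alternatives the fold change lay between 1.42 and 2.16.

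Within each closed pair 1 library carried more of the epithelial genes. For Cdh1 these were library 15 of the diabetic and library 11 of the normal dams. The gap inside each closed pair was wider than the difference between the means of closed and open tissue. Set against Cdh2, the N-cadherin gene of the neural plate, in the same library, the ratio of Cdh1 to Cdh2 counts was 1.12, 0.414, 1.30 and 1.00 in closed libraries 15, 16, 11 and 12 and 0.583, 0.639, 0.173 and 0.259 in open libraries 13, 14, 09 and 10. The groups overlap in this ratio, because library 16 lies below libraries 13 and 14. The ratio was chosen after the values were seen.

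**Figure D2:**
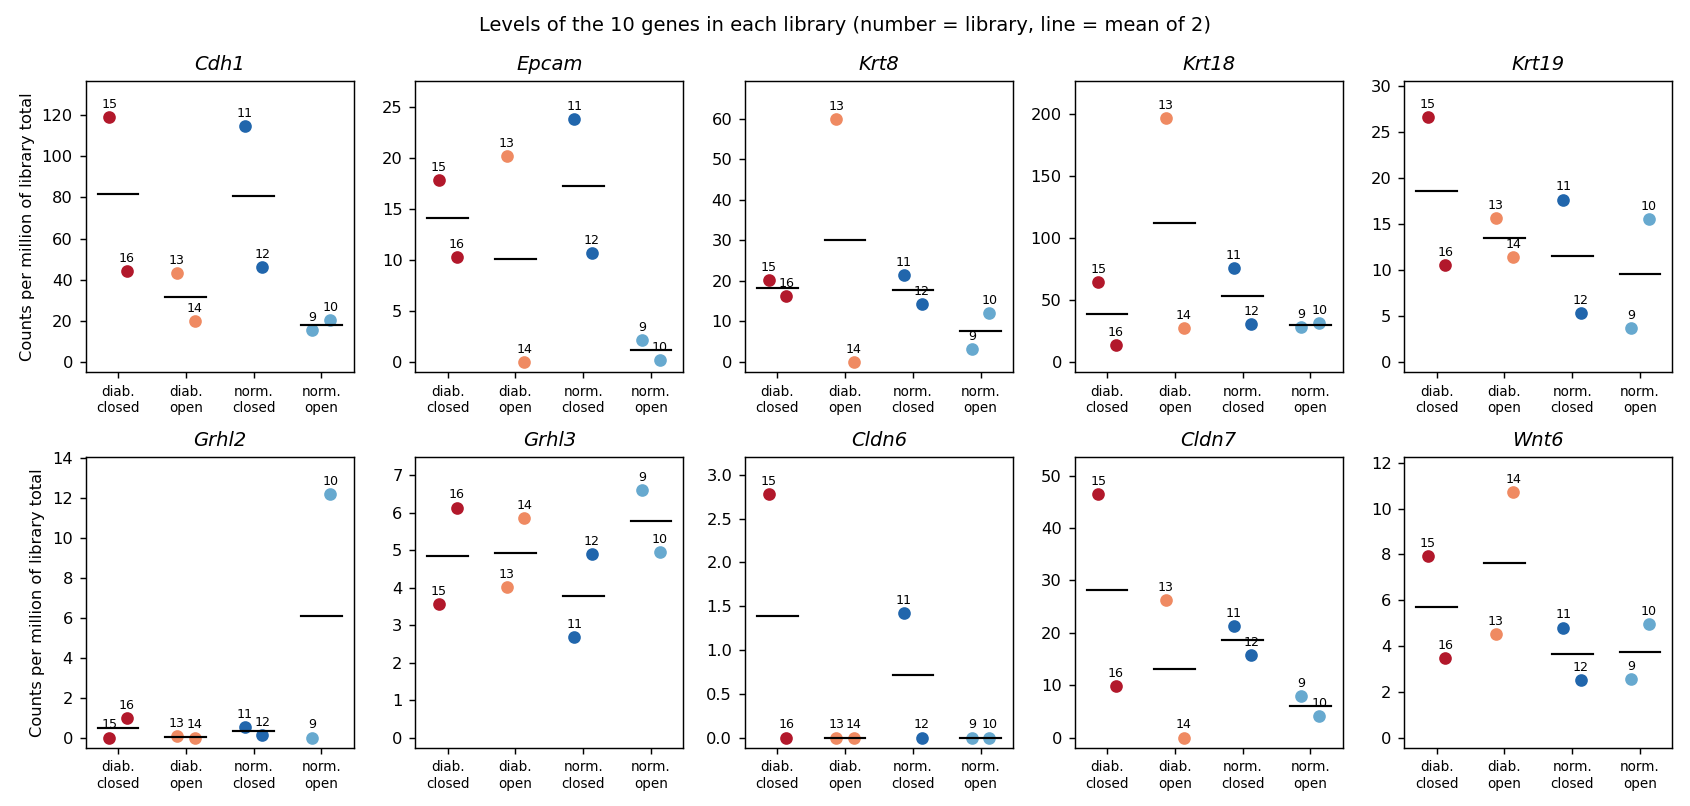
Level of each of the 10 genes in every library, in CPM of the library total, with the mean of each pair as a line. Cdh1 is the gene whose 4 closed libraries all lie above its 4 open ones, library 13 is highest for Krt8 and Krt18, and library 14 is at 0 for Epcam, Krt8 and Cldn7.

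Epcam, the gene of a cell adhesion molecule that marks simple epithelia, was present in every closed library and nearly missing in 3 of the 4 open ones. It stood at 17.9 and 10.3 CPM in diabetic closed libraries 15 and 16 and at 23.9 and 10.7 CPM in normal closed libraries 11 and 12, against 20.2 and 0 CPM in diabetic open libraries 13 and 14 and 2.17 and 0.176 CPM in normal open libraries 09 and 10. The value in library 10 is 1 count, and the 0 in library 14 allows up to 0.358 CPM by counting error. Open library 13 alone was within the range of the closed libraries. The log2 fold change of closed over open tissue was 2.13 (SE 1.52, edgeR adjusted p = 1.00), and without library 13 it was 4.89 (SE 1.43, edgeR adjusted p = 0.933).

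Cldn7, a claudin of tight junctions, had a like pattern. Its levels were 46.4 and 9.77 CPM in diabetic closed libraries 15 and 16 and 21.4 and 15.7 CPM in normal closed libraries 11 and 12, against 26.3 and 0 CPM in diabetic open libraries 13 and 14 and 7.9 and 4.06 CPM in normal open libraries 09 and 10. Closed and open libraries overlap only through library 13. The log2 fold change was 1.39 (SE 1.11) with all libraries and 3.07 (SE 1.35) without library 13 (edgeR adjusted p = 1.00 and 0.933). Cldn6, a claudin of embryonic epithelia, was near the limit of detection. It had 14 counts in diabetic closed library 15 and 8 in normal closed library 11, the 2 libraries with the most Cdh1, and none in the other 6, where a 0 allows 0.18 to 0.529 CPM. It did not pass the filter on low counts and was not tested.

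The keratin genes did not move together. Krt8, the type II chain, stood at 20.2 and 16.3 CPM in diabetic closed libraries 15 and 16 and at 21.4 and 14.2 CPM in normal closed libraries 11 and 12, against 60 and 0 CPM in diabetic open libraries 13 and 14 and 3.16 and 12.2 CPM in normal open libraries 09 and 10. The 4 closed libraries were close together (18 ± 3.34 CPM, SD), while the open ones held both the highest and the lowest value of all 8 (18.8 ± 27.9 CPM, n = 4 each). Its log2 fold change of closed over open tissue was 0.30 (SE 1.21) with all libraries and 2.70 (SE 1.37) without library 13 (edgeR adjusted p = 1.00 and 0.933).

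Krt18, the type I partner of Krt8, was highest in library 13 as well. It stood at 64.3 and 13.5 CPM in diabetic closed libraries 15 and 16 and at 75.7 and 30.2 CPM in normal closed libraries 11 and 12, against 197 and 27 CPM in diabetic open libraries 13 and 14 and 27.7 and 31.2 CPM in normal open libraries 09 and 10. Apart from library 13 the open libraries lay within 27 to 31.2 CPM, and the closed ones spread on both sides of them. The log2 fold change was -0.30 (SE 0.76) with all libraries and turned to 0.75 (SE 0.52) without library 13 (edgeR adjusted p = 1.00 and 0.933). Krt19, a type I chain that also pairs with Krt8, ranged from 5.33 to 26.6 CPM in closed and from 3.65 to 15.6 CPM in open libraries, and its fold change was 0.42 (SE 0.68).

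Krt8 and Krt18 are neighbouring genes on chromosome 15 and their chains form 1 filament, yet their tags did not keep 1 ratio. Krt8 had 0.315, 1.21, 0.282 and 0.471 counts for each Krt18 count in closed libraries 15, 16, 11 and 12, and 0.306, 0, 0.114 and 0.39 in open libraries 13, 14, 09 and 10. In libraries 15, 13 and 11, the 3 with the highest sums, the ratio lay between 0.282 and 0.315. In library 14 there was no Krt8 count beside 226 counts of Krt18, and in library 16 Krt8 was the more abundant of the pair. Keratin genes have near-identical copies in the genome, and how tags that fit several genes were counted is not given in the sources used here, so these ratios are uncertain.

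The grainyhead-like factors were low and did not follow Cdh1. Grhl3 stood at 3.57 and 6.14 CPM in diabetic closed libraries 15 and 16 and at 2.67 and 4.89 CPM in normal closed libraries 11 and 12, against 4.02 and 5.85 CPM in diabetic open libraries 13 and 14 and 6.62 and 4.94 CPM in normal open libraries 09 and 10. It was the most even of the 10 genes across libraries, at 4.32 ± 1.52 CPM in closed tissue against 5.36 ± 1.12 CPM in open tissue (n = 4 each, SD), and the groups overlap. The lowest value, in library 11, rests on 15 counts (95% exact interval 1.5 to 4.41 CPM), and the highest, in library 09, on 67 counts (5.13 to 8.4 CPM). These intervals cover counting error only. The log2 fold change of closed over open tissue was -0.28 (SE 0.99, edgeR adjusted p = 1.00). The 3 libraries with the lowest Grhl3 (11, 15 and 13) were the 3 with the highest sum of the 10 genes.

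Grhl2 was found almost in 1 library alone. Normal open library 10 had 69 counts of Grhl2 (12.2 CPM, 95% exact interval 9.47 to 15.4 CPM), and the other 7 libraries had 0 to 7 counts each, at most 0.977 CPM. The closed libraries, in which Cdh1 was highest, had 0, 7, 3 and 1 counts in libraries 15, 16, 11 and 12. Library 10 was low in Cdh1 (20.1 CPM) and had 1 count of Epcam. Grhl2 did not pass the filter on low counts and was not tested. Grhl1, the third gene of the family, had no count in any library.

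Wnt6, a secreted ligand of surface ectoderm known from chick embryos to promote neural crest, did not follow the adhesion genes. It stood at 7.93 and 3.49 CPM in diabetic closed libraries 15 and 16 and at 4.81 and 2.52 CPM in normal closed libraries 11 and 12, against 4.5 and 10.7 CPM in diabetic open libraries 13 and 14 and 2.57 and 4.94 CPM in normal open libraries 09 and 10. Library 14, which lacked Epcam, Krt8 and Cldn7, had the highest Wnt6 level of all, on 90 counts (95% exact interval 8.64 to 13.2 CPM). The log2 fold change of closed over open tissue was -0.18 (SE 0.99).

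Of the 10 genes, 8 passed the filter on low counts and were tested. For closed against open tissue, edgeR called 0 of them at an adjusted p below 0.05, beside 0% of all 11779 genes tested. At an unadjusted p below 0.05 it had 1 (Cdh1), against 3.32% of all genes, or 391 genes. All 4 closed libraries lay above all 4 open ones for 1 member (Cdh1), against 1.68% of all genes, and below them for 0 members, against 1.07%. With open library 13 left aside, the 4 closed libraries lay above the other 3 open ones for 4 of the 8, Cdh1, Epcam, Krt8 and Cldn7, against 4.29% of all genes. They lay below them for 0 members, against 2.78% of all genes. Library 13 was set aside after the data were seen, and it was the open library highest in these 4 genes. Leaving it out favours their separation, so the shares without it are a description only. The median log2 fold change of the 8 was 0.36, with 5 above 0, while that of all genes was 0.07, with 55.5% above 0. The typical (median) SE of a log2 fold change was 0.67.

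**Figure D3:**
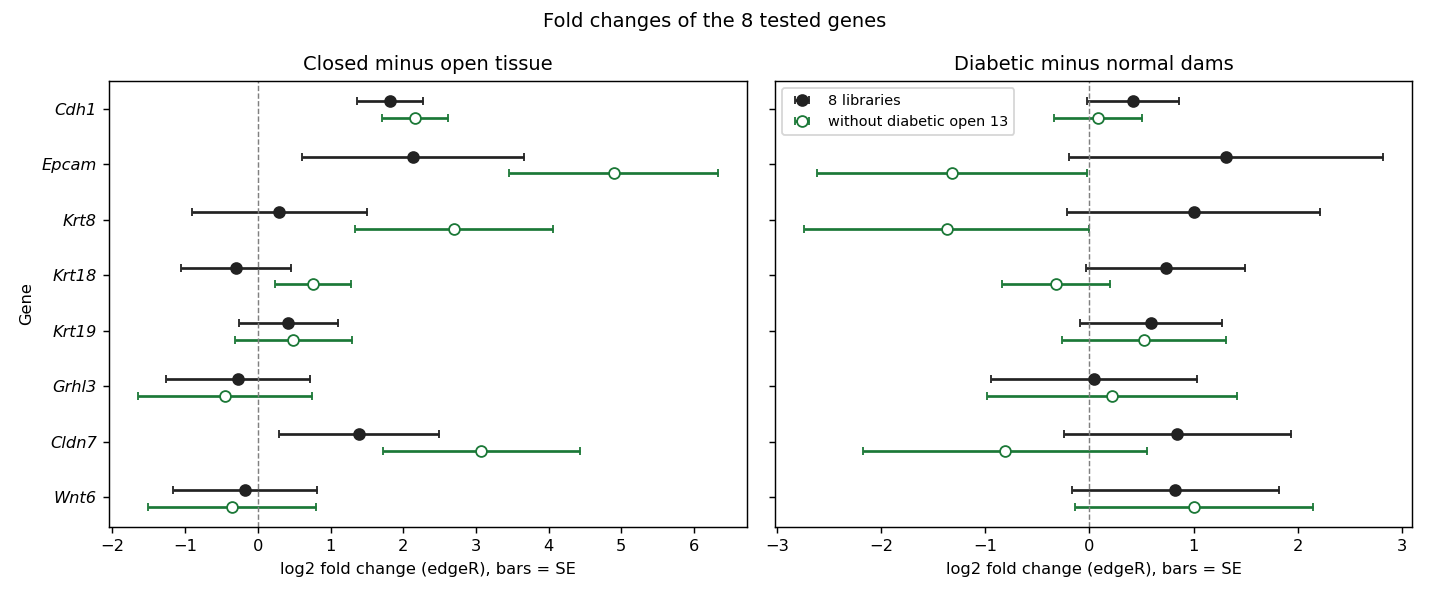
Log2 fold changes of the 8 tested genes with their standard errors, for closed minus open tissue and for diabetic minus normal dams, with all 8 libraries (filled) and without diabetic open library 13 (empty). Cdh1 stays near 2 in the first comparison either way, while Epcam, Krt8 and Cldn7 move up without library 13 in the first comparison and below 0 in the second.

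No member was called between libraries of diabetic and normal dams. Cdh1 averaged 56.6 ± 43.1 CPM in libraries of diabetic dams and 49.1 ± 45.8 CPM in those of normal dams (n = 4 each, SD), which gave a log2 fold change of 0.42 (SE 0.44). Krt18 averaged 75.3 ± 83.6 CPM for diabetic dams against 41.2 ± 23 CPM for normal dams. Without library 13 its mean with diabetic dams was 34.9 ± 26.3 CPM (n = 3), and the log2 fold change of 0.73 (SE 0.76) became -0.32 (SE 0.52). Epcam, Krt8 and Cldn7 changed sign in the same way, to -1.32 (SE 1.30), -1.37 (SE 1.37) and -0.81 (SE 1.37) without library 13, against 1.31 (SE 1.51), 1.00 (SE 1.22) and 0.85 (SE 1.09) with it.

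Wnt6 averaged 6.67 ± 3.32 CPM for diabetic dams against 3.71 ± 1.35 CPM for normal dams (n = 4 each, SD), which gave a log2 fold change of 0.82 (SE 0.99), and the groups overlap. Grhl3 was level at 4.9 ± 1.29 CPM for diabetic dams against 4.78 ± 1.62 CPM for normal dams (0.04, SE 0.99). Krt19 averaged 16 ± 7.4 CPM for diabetic dams against 10.5 ± 7.06 CPM for normal dams (0.59, SE 0.68). Among the 8 tested members edgeR called 0, beside 0% of all genes, with an adjusted p of 0.999 for each. At an unadjusted p below 0.05 there were 0 members, against 4.55% of all genes, or 536 genes. The 4 libraries of diabetic dams lay above all 4 of normal dams for 0 members, against 2.48% of all genes, and below them for 0, against 1.15%. DESeq2 called 9 genes for the region and 37 for the dam, and limma-voom 0 and 0, with 0 members among them. At an unadjusted p below 0.05, DESeq2 had 651 and 874 genes, with 1 member (Cdh1) for the region and 0 for the dam. Limma-voom had 616 and 850, with 2 members (Cdh1 and Epcam) for the region and 0 for the dam.

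Splitting the libraries by both factors leaves 2 in each group. In closed tissue Cdh1 was almost level between dams, at 81.5 ± 53 CPM for diabetic dams against 80.5 ± 48.3 CPM for normal dams (n = 2 each, SD). In open tissue it averaged 31.7 ± 16.5 CPM for diabetic dams against 17.7 ± 3.4 CPM for normal dams. Cdh1 therefore had a log2 fold change of closed over open tissue of 1.40 (SE 0.63) within diabetic and 2.24 (SE 0.65) within normal dams. The difference between these, tested as an interaction, was -0.83 (SE 0.88, edgeR adjusted p = 1.00). Without library 13 the fold change within diabetic dams was 2.07 (SE 0.76, edgeR adjusted p = 0.561) and the interaction -0.15 (SE 0.89).

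The greatest fitted interactions were those of Epcam (-3.32, SE 2.63) and Krt18 (-2.37, SE 1.29), both with an edgeR adjusted p of 1.00. Without library 13 the Epcam value became 5.83 (SE 2.78) and the Krt18 value -0.30 (SE 1.08), where library 14 alone stands for open tissue of diabetic dams and is assumed to vary like the other groups. In that fit Krt8 and Cldn7 had interactions of 8.74 (SE 2.32) and 8.997 (SE 2.32). Epcam, Krt8 and Cldn7 were each at 0 in library 14. A fitted value against a group at 0 depends on the prior count, so the values of these genes in that fit are no measure of size.

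In each of these splits and in the interaction edgeR called 0 members, beside 0% of all genes. At an unadjusted p below 0.05, Cdh1 was the 1 member when closed and open libraries of normal dams were compared (3.40% of all genes), and 0 members were past it within diabetic dams (2.78%). For diabetic against normal dams there were 0 in open tissue (7.22% of all genes) and 0 in closed tissue (1.17%), and for the interaction 0 (3.74%). Without the filter on low counts edgeR called Cdh1 in normal dams (adjusted p = 0.0252), beside 22 of 15162 genes. It also called Krt18 for diabetic against normal dams in open tissue (log2 fold change 1.92, adjusted p = 0.0247), beside 138 of 15162 genes. In these fits, too, a gene's own spread carried little weight. The Krt18 value rests on library 13, without which the fold change was -0.14 (SE 0.84, edgeR adjusted p = 1.00).

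Levels of markers of several cell types are given beside these genes. Surface ectoderm markers other than the 10 genes (10 listed) summed to 85.7 and 41.9 CPM in diabetic closed libraries 15 and 16 and to 85.5 and 64.6 CPM in normal closed libraries 11 and 12, against 33.8 and 8.12 CPM in diabetic open libraries 13 and 14 and 27.7 and 35.5 CPM in normal open libraries 09 and 10. The closed libraries thus lay above all open ones in this sum, and library 14 was lowest. Tcfap2a, a transcription factor of surface ectoderm and neural crest, stood at 26.2, 11.4, 41 and 24.3 CPM in closed libraries 15, 16, 11 and 12 and at 0.18, 0, 12.9 and 6.88 CPM in open libraries 13, 14, 09 and 10. Without Tcfap2a the sum in closed library 16 would lie below that in open library 13. The next most abundant markers, Tcfap2c and Krt7, overlapped between regions. Tcfap2c was at 6.42 CPM in open library 09, against 4.74, 3.92 and 5.92 CPM in closed libraries 16, 11 and 12. Krt7 was at 17.1 CPM in open library 10, against 13.3 and 10.2 CPM in closed libraries 16 and 12. Trp63, a factor of stratifying epithelium, stood at 4.76, 3.91, 7.3 and 6.22 CPM in closed libraries 15, 16, 11 and 12. In open libraries 13, 14, 09 and 10 it stood at 0, 5.49, 2.27 and 8.82 CPM, so the regions overlap. The basal keratin gene Krt14 was at 0 in all 8 libraries. Of the 7 tested markers 7 had a positive fitted fold change of closed over open tissue (median 1.71), and edgeR called 0. Among them Gata3 was fitted at 1.09 (SE 4.43), though its mean was 2.14 CPM in closed against 5.48 CPM in open tissue. That open mean rests on library 13 (21.9 CPM).

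In library 13 the markers of a list did not move as 1 group. Of its gut endoderm sum, 70.3% was Gata4 (87.7 CPM, at most 4.36 CPM in the other 7 libraries) and Gata6 (55.4 CPM, at most 3.57). Sox17, of endoderm and endothelium, was also highest there (15.7 CPM), and Hhex was found there alone (4.56 CPM). Foxa2, of endoderm, notochord and floor plate, was at its lowest (7.69 CPM, against 12.1 to 23.9 CPM in the other 7), and Trh (0.06 CPM) and Nepn (8.53 CPM) were below closed library 15 (3.77 and 31.1 CPM). The surface ectoderm sum of 33.8 CPM in library 13 was for 64.8% Gata3, at 21.9 CPM there and at most 4.29 CPM elsewhere. The other 9 surface ectoderm markers summed to 11.9 CPM in library 13, against 8.12 to 35.5 CPM in the other open libraries and 40.9 to 84.7 CPM in the closed ones, with Tcfap2a at 0.18 CPM and 5 markers at 0. These markers give no single label for the tissue in which Krt8, Krt18 and Epcam were high in library 13. The 11 gut endoderm markers summed to 79.9 CPM in closed library 15 and to 38.6 CPM in library 16, against 28.4 CPM in open library 14 and 19.8 to 22.4 CPM in the 4 libraries of normal dams. The part of these cell types in the levels of the 10 genes was not tested.

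The other marker lists are given by their tested genes in the fit of region and dam, where edgeR called 0 in each. For closed over open tissue the median log2 fold change was -1.81 for gut endoderm (9 genes), -2.27 for visceral endoderm (2), 0.87 for notochord (4), 0.11 for mesenchyme (7), -1.63 for heart (2), -2.82 for endothelium (5), -3.53 for blood (3), 0.39 for neural (7) and 1.35 for neural crest markers (5). For diabetic over normal dams it was 4.56, 0.94, -1.17, 1.72, 4.09, 4.45, 5.82, -0.38 and -0.79 in the same order, and -0.80 for surface ectoderm. Several genes of these lists were at or near 0 with normal dams, such as Foxa3, Pyy, Actc1 and Gata1 (mean 0 CPM) and Tek (0.679 CPM). A fitted value against a group at 0 depends on the prior count, so medians that hold such genes are no measure of size. Blood markers summed to 4.36 and 209 CPM in diabetic closed libraries 15 and 16 and 919 and 1009 CPM in diabetic open libraries 13 and 14, and to at most 63.3 CPM in the libraries of normal dams. Without library 13 the median for closed over open tissue was -0.55 for gut endoderm (8 genes), -1.28 for visceral endoderm, 0.43 for notochord, 0.49 for mesenchyme, -0.31 for heart (1 gene), -2.79 for endothelium, -3.75 for blood, -0.01 for neural, 1.14 for neural crest and 3.05 for surface ectoderm markers. For diabetic over normal dams it changed sign for visceral endoderm (-0.63), heart (-0.36) and neural markers (0.01). Libraries 13 and 14 were alike in blood markers and unlike in mesenchyme (1334 and 287 CPM) and neural sums (178 and 910 CPM).

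**Figure D4:**
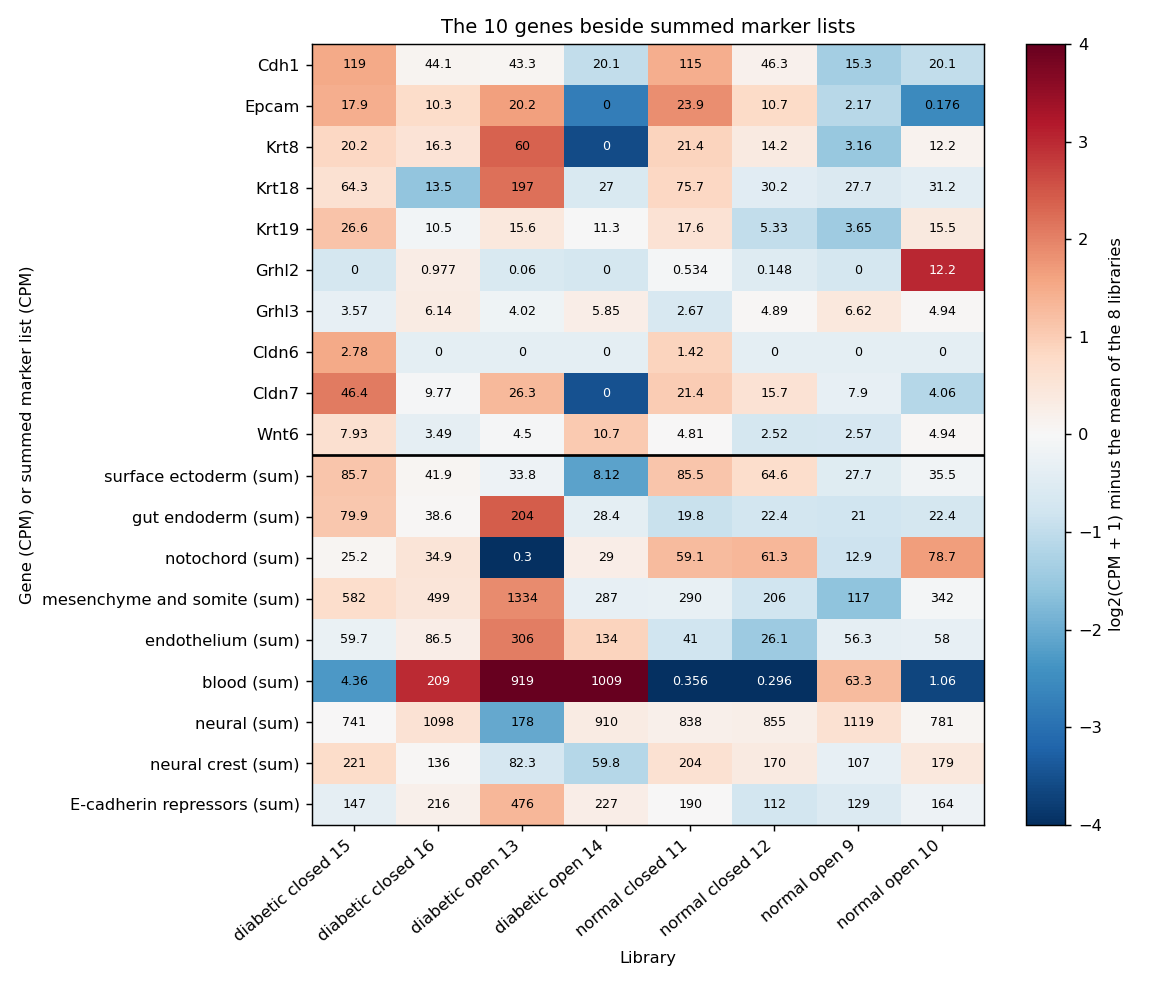
Level of the 10 genes (above the line) and summed level of marker lists (below it) in each library, printed in CPM and coloured by log2(CPM + 1) minus the mean of the 8 libraries, with the colour ending at -4 and 4. Library 13 combines high Krt8 and Krt18 with a mesenchyme and somite sum of 1334 CPM, a neural sum of 178 CPM and a gut endoderm sum of 204 CPM, of which Gata4 and Gata6 make 143 CPM, and library 14 combines 0 CPM of Epcam, Krt8 and Cldn7 with the lowest surface ectoderm sum.

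The lack of Epcam, Krt8 and Cldn7 in library 14 was set against genes of like abundance. Their means in the other 7 libraries were 12.2, 21.1 and 18.8 CPM. Of 2600 tested genes averaging 10 to 30 CPM in those 7 libraries, 4.58% had no count in library 14, and the same share was 5.98% in library 10 and at most 0.96% in each of the other 6. Libraries 14 and 10 thus lacked genes of this abundance more often than the others, and library 10 is the one with 1 count of Epcam. Whether this bears on the 0 counts was not tested. Cdh1 had 168 counts in library 14.

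Other genes of the same structures are given by list, with the number fitted higher or lower, and edgeR called 0 of them. Among 11 adherens junction genes 9 were tested, with 8 fitted higher and 1 lower in closed than in open tissue and a median log2 fold change of 0.22. Ctnnd1, which encodes the p120 catenin bound to cadherins, averaged 195 ± 21.8 CPM in closed tissue against 178 ± 89.4 CPM in open tissue (n = 4 each, SD). Ctnnb1, the gene of beta-catenin, averaged 675 ± 785 CPM in closed tissue against 305 ± 308 CPM in open tissue. It differed more by dam, at 137 ± 69.2 CPM for diabetic dams against 843 ± 682 CPM for normal dams (log2 fold change -2.56, SE 0.75, edgeR adjusted p = 0.999). The dams overlap, since normal open library 10 had 82.7 CPM, within the 77.8 to 230 CPM of diabetic dams. Normal closed library 12 was highest at 1743 CPM. Pvrl2, the gene of nectin-2, was level at 91.8 ± 24.3 CPM in closed against 92.3 ± 29.8 CPM in open tissue, or 78.4 ± 13.4 CPM in open tissue without library 13 (n = 3).

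Tight junction genes (17 of 19 tested) had 10 fitted higher and 7 lower in closed tissue, with a median of 0.16. The scaffold gene Tjp1 averaged 93.5 ± 25.6 CPM in closed tissue against 74.1 ± 38 CPM in open tissue, and Cldn12 78.2 ± 13.4 CPM in closed against 74.1 ± 22.6 CPM in open tissue, or 81.6 ± 20.8 CPM in open tissue without library 13. The polarity gene Pard6b averaged 48.9 ± 5.04 CPM in closed tissue against 64.6 ± 49.4 CPM in open tissue. The open mean rests on library 13 (136 CPM), without which it was 40.7 ± 15.6 CPM, below the closed mean. Cldn3, a claudin that grainyhead-like factors are known to raise, stood at 34.9, 8.51, 14.6 and 0.592 CPM in closed libraries 15, 16, 11 and 12 and at most 0.955 CPM in the open ones. Cldn3 is named here because of these values.

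The keratin and desmosome list had 6 of 14 genes tested, 5 fitted higher and 1 lower in closed tissue, with a median of 0.74. Dsp, the gene of desmoplakin, which ties keratin filaments to desmosomes, averaged 71 ± 29.7 CPM in closed tissue against 53.3 ± 65.8 CPM in open tissue, with its highest level (152 CPM) in library 13 and its lowest (13.5 CPM) in library 14, as for Krt8. Without library 13 its open mean was 20.5 ± 6.38 CPM. Pkp4 averaged 460 ± 106 CPM in closed tissue against 445 ± 50.9 CPM in open tissue, and Krt17 30.9 ± 2.54 CPM in closed against 35.8 ± 11.3 CPM in open tissue. Epithelial factors and grainyhead-like targets had 7 of 12 genes tested, 6 fitted higher and 1 lower in closed tissue (median 0.92). Esrp1, an epithelial splicing regulator, averaged 14.5 ± 10.2 CPM in closed tissue against 9.56 ± 4.08 CPM in open tissue, and was highest in the libraries that led in Cdh1, at 27 CPM in library 15 and 18.7 CPM in library 11. Prss8, a membrane-bound protease, averaged 12.8 ± 9.42 CPM in closed against 6.56 ± 5.71 CPM in open tissue, and the protease inhibitor gene Spint2 9.34 ± 3.46 CPM in closed against 6.76 ± 8.25 CPM in open tissue (3.23 ± 5.24 CPM without library 13).

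Known repressors of the E-cadherin gene had a median log2 fold change of closed over open tissue of -0.36, with 5 of 5 below 0 and 0 past the test. This direction rests on library 13, where Twist1 (316 CPM), Snai2 (56.6 CPM) and Snai1 (35.6 CPM) were highest. Without it the median was 0.19, with Twist1 (0.19, SE 0.47), Snai1 (0.36, SE 0.70) and Snai2 (2.995, SE 2.75) above 0 and Zeb1 (-0.60, SE 0.61) and Zeb2 (-0.17, SE 0.29) below. Zeb2 averaged 69.4 ± 13.3 CPM in closed tissue against 73.6 ± 18.5 CPM in open tissue, and Zeb1 12.5 ± 4.28 CPM in closed against 19.3 ± 4.43 CPM in open tissue. Twist1 averaged 66.6 ± 33.4 CPM in closed against 124 ± 135 CPM in open tissue, and 59.5 ± 49.7 CPM in open tissue without library 13. Of 18 other Wnt ligand genes 8 were tested, 6 fitted higher and 2 lower in closed tissue (median 1.88). Wnt1, of the dorsal midline, averaged 9.28 ± 4.28 CPM in closed tissue against 7.14 ± 5.16 CPM in open tissue (9.52 ± 2.45 CPM without library 13), Wnt5a 6.51 ± 1.43 CPM in closed against 8.06 ± 5.81 CPM in open tissue, and Wnt3 5.12 ± 1.04 CPM in closed against 5.69 ± 7.33 CPM in open tissue, levels like those of Wnt6. For diabetic against normal dams the medians of these 6 lists were 0.05 for adherens junction, 0.18 for tight junction, 0.15 for keratin and desmosome, 0.34 for epithelial factors, 0.72 for the repressors and -0.56 for the other Wnt ligands, against 0.04 for all genes. Without library 13 these medians were -0.08, -0.32, -0.14, 0.02, 0.05 and -0.90 in the same order, and for closed over open tissue 0.53, 0.31, 1.47, 2.63, 0.19 and 1.99. EdgeR called 0 genes of these lists in either comparison, with or without library 13.

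The genes most like the members across libraries were ranked by Pearson's r of log2(CPM + 1) over the 8 libraries, among 6937 tested genes averaging at least 10 CPM. The 8 points share their libraries, which differ in depth and tissue makeup, so r is given as a description. Cdh1 was closest to Trex1 and Sp2 (r = 0.933 each), Epcam to Maf (0.967) and Ldb2 (0.954), and Krt8 to Ssr1 (0.971). Krt18 was closest to C85492 (0.957), Cldn7 to Rab28 (0.968), Wnt6 to Phf23 (0.97) and Grhl3 to Ankrd11 (0.954). For Krt19, next to Fgfbp1 (0.924), the somite gene Tcf15 ranked second (0.919).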

How the data were processed

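The data are the raw tag counts per gene symbol that the authors deposited, 1 file per library, with 26608 genes each. Per the labels' protocols, SOLiD SAGE libraries were made from laser-dissected tissue, and the submitters' processing notes name the build mm9. Which aligner, counter and annotation were used, and how strand and tags fitting several genes were treated, is not given in the sources used here. The study's 8 libraries fall into 4 groups of 2 by region and dam.

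Levels are CPM of each library's total. Tests used edgeR 4.0.16 in R 4.3.3 (quasi-likelihood F test, TMM scaling with factors of 0.975 to 1.04, filterByExpr with a minimum count of 10, 11779 genes kept) with Benjamini-Hochberg adjustment over all of these genes. Region and dam were fitted additively, and the splits and the interaction as contrasts of 4 groups. Standard errors were derived from the F statistics. The alternatives were DESeq2 1.42.0, limma-voom (limma 3.58.1), other scalings, no filter, and leaving out each library.

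Libraries of a group differed by more than sampling noise (chi-square over degrees of freedom 32.1 to 121). The 10 genes and the 16 marker and pathway lists were chosen with earlier results of these data known. From each pathway list the 3 genes with the highest mean were named. Krt14, Trp63, Cldn3 and Grhl1 were named after their values were seen, as were Snai1, Snai2, Gata3, Sox17, Hhex, Trh and Nepn. List values without library 13 were added after seeing the data. No sample or file was left out.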

Additional observations from a re-analysis of the deposited data

Results flagged for a closer look

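Gaps between libraries were examined in 39 sets of 4 libraries with a nonzero range (each gene in closed, open, diabetic and normal libraries). In 8 sets the gap of 1 library to its nearest neighbour took up most of the range (above Dixon's 95% critical value). That value is passed by chance about 1 time in 20 only when values are normally distributed. Levels that include libraries without a count are not, so 8 of 39 cannot be set against that rate and is a description. The gene Epcam stood at 20.2 CPM in diabetic open library 13, and the next open library had 2.17 CPM. Krt18 stood at 197 CPM in library 13 among open libraries and at 75.7 CPM in normal closed library 11 among libraries of normal dams. Grhl2 reached 12.2 CPM in normal open library 10, far from both the other open libraries and the other libraries of normal dams. In diabetic closed library 16 Grhl2 was at 0.977 CPM, on 7 counts, while the other libraries of diabetic dams had at most 1 count. Cldn6 was found in 1 library each of diabetic and normal dams, at 2.78 CPM in diabetic closed library 15 and 1.42 CPM in normal closed library 11. A set with counts in 1 library alone is flagged whatever its level, so the Cldn6 flags show nothing further. The Grhl2 set of diabetic dams is close to this case. The sets of a gene share libraries, so the 8 flagged sets are not 8 separate events, and their causes were not tested.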

How the results depend on the processing

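No paired analysis was made, because no replicate number occurs in more than 1 group. The labels do not tell whether closed and open libraries share embryos, and the fits treat the libraries as independent. Levels on TMM-scaled library sizes moved all 40 group means by less than 1 SD. Of 24 fold changes (8 genes, by region, by dam and for the interaction), only Cdh1 by region passed in an alternative, without the count filter (adjusted p = 0.00128), and 32 alternative values changed sign while 279 kept their sign and their side of the threshold. Under limma-voom these were Epcam -0.12, Krt8 -0.000115, Grhl3 -0.16 and Cldn7 -0.26 by dam, and Krt8 0.35, Krt19 -0.48 and Cldn7 1.61 for the interaction. Leaving out 1 library at a time moved the closed-minus-open value between -0.18 and 2.70 for Krt8, -0.82 and 0.75 for Krt18 and -0.43 and 0.17 for Wnt6. It moved the diabetic-minus-normal value between -1.32 and 1.99 for Epcam, -1.37 and 1.34 for Krt8, -0.32 and 1.32 for Krt18, -0.17 and 0.22 for Grhl3 and -0.81 and 1.23 for Cldn7. For the interaction the ranges were -1.69 to 0.0089 for Cdh1, -6.02 to 5.83 for Epcam, -3.12 to 8.74 for Krt8, -1.11 to 1.31 for Krt19, -2.02 to 8.997 for Cldn7 and -1.09 to 0.40 for Wnt6. A group left with 1 library is assumed to vary like the others.

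EdgeR called 0 genes in each of the 7 comparisons. In the order closed minus open, diabetic minus normal, closed minus open in normal and in diabetic dams, diabetic minus normal in open and in closed tissue, and interaction, DESeq2 called 9, 37, 27, 46, 195, 2 and 17 genes and edgeR without the count filter 29, 89, 22, 41, 138, 11 and 23. Limma-voom called 1 gene each in the fourth, the fifth and the seventh. With 1 library left out the calls ranged over 0 to 3, 0 to 2, 0 to 18, 0 to 21, 0 to 61, 0 to 3 and 0 to 9 genes. Without the count filter 15162 genes were tested, and a gene's own spread carried little weight in the calls of members. The members called were 1 of 29 genes by region (Cdh1) and 1 of 22 by region in normal dams (Cdh1). By dam in open tissue 1 of the 138 genes called was a member (Krt18). Members with all closed above all open libraries numbered 1 of 8 with all libraries (1.68% of all genes) and 4 of 8 without library 13 (4.29%). The second was an alternative chosen after seeing the data. The causes of these differences were not tested.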
